A study of Rattus norvegicus with 12 samples.

Results

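The genes of the constitutive proteasome were followed through livers donated after circulatory death (DCD) in the rat. Members were the protein-coding genes whose symbol starts with Psma to Psmg and a number, other than the immunoproteasome subunits Psmb8, Psmb9 and Psmb10, and 46 of the 33744 genes in the table met this rule. Of these, 16 encode the catalytic core (Psma and Psmb), 20 carry the names of the regulatory cap (Psmc and Psmd), 4 are activators (Psme), 1 is an inhibitor (Psmf1) and 4 are assembly chaperones of the core (Psmg). The remaining gene, Psmc3ip, shares the letters but encodes a cofactor of meiotic recombination. It was left out of core, cap and the other groups below, but is included in counts over all 46 members or the 43 tested ones.

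Whole liver tissue was sequenced from male Sprague Dawley rats, with 3 livers and 1 library per liver in each of 4 groups, all after warm ischemia of 30 min. HOPE 1 h livers were kept cold for 3 h in HTK solution and then 1 h of hypothermic oxygenated machine perfusion, and the HMP 1 h livers had the same cold storage and perfusion without oxygenation. Static cold storage lasted 4 h in SCS 4 h livers, and WI 30 min livers had warm ischemia only. HOPE 1 h and HMP 1 h are called perfused livers here, and SCS 4 h and WI 30 min are called unperfused livers. No liver without ischemia was part of the comparison.

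The proteasome is the protease that degrades most ubiquitin-tagged proteins in the cytosol and nucleus. Its core is a barrel of stacked rings, in which the outer alpha rings (Psma) gate the entry and the inner beta rings (Psmb) hold the catalytic sites. The cap binds the ubiquitin chain, removes it and uses ATP to unfold the substrate and push it into the barrel. In mammalian cells, core and cap genes are known to be transcribed together after proteasome inhibition, through the factor Nfe2l1.

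Total counts were 15262961 to 18343167 per liver, and 43 of the 46 members were among the 13687 genes that passed the filter on low counts. The members not tested were Psma8, a testis form of an alpha subunit (16 counts over the 12 livers), Psmb11, a thymus form of a catalytic subunit (2 counts), and the activator Psme1 (12 counts). The low count of Psme1 stands on a gene model of which 89.5% lies under Emc9, read from the opposite strand with 402 counts. The sources used here do not give whether the counting used strand. Hepatocyte markers were abundant in every liver, with the 6 genes summing to 111280 to 153990 CPM (counts scaled by library size) in perfused livers and 101260 to 171020 CPM in unperfused livers. Alb carried most of this sum. The marker Apoa1 was lower against SCS 4 h, with log2 fold changes of -1.06 in HMP 1 h and -0.79 in HOPE 1 h livers. The other hepatocyte markers lay between -0.14 and 0.37 for HMP 1 h and between -0.13 and 0.35 for HOPE 1 h in these comparisons. HMP liver 1 and HOPE liver 3 stood apart in markers of other cells. The 6 Kupffer cell markers summed to 1079 and 715 CPM in these livers, against 289 to 471 CPM in the other 10 livers. HMP liver 1 also had 18.7% of its counts on the mitochondrial chromosome, against 4.79% to 10.2% in the other livers. Results were therefore also computed without both livers. In whole tissue, fewer cells of a type and less RNA per cell cannot be told apart.

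Promoter windows of 250 bases before to 50 bases after the start, from RefSeq on GRCr8, were at hand for 41 of the 46 members. They were searched on both strands for TGACNNNGC, the core of the antioxidant response element that Nfe2l1 and Nfe2l2 bind, and for CCAAT, the element bound by NF-Y. The matches of Psmb2 to both motifs overlapped. TGACNNNGC was present in 7 of 31 core and cap windows (22.6%), against 12.1% of all 33469 windows and 14.6% of the windows of tested genes. CCAAT was present in 9 of 14 core windows (64.3%) and 7 of 17 cap windows (41.2%), against 37.5% of all windows. The 250 bases before the start are shown for the members given liver by liver below whose window held TGACNNNGC in that stretch, with the match in capitals. Psmb5 and Psmb6 encode catalytic subunits and Psmd1 a scaffold of the cap. The stretches lie at chr15:32047380-32047629 (minus strand), chr10:55737638-55737887 (plus strand) and chr9:94157721-94157970 (plus strand), and each is printed in the direction of the gene.
Psmb5: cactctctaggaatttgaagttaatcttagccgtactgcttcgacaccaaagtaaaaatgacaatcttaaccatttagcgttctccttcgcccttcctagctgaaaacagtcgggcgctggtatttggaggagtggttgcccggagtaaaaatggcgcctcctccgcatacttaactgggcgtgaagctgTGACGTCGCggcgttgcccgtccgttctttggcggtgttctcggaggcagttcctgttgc
Psmb6: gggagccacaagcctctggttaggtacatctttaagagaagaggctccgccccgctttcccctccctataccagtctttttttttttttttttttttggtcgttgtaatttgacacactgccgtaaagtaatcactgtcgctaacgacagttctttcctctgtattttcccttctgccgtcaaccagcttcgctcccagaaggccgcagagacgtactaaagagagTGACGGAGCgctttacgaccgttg
Psmd1: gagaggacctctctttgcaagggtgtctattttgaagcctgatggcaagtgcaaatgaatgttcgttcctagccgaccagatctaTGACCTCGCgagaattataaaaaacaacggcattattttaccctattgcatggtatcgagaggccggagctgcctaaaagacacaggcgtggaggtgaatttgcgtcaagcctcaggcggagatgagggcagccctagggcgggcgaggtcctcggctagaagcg
The match began 60 bases before the start in Psmb5, 24 bases before it in Psmb6 and 165 bases before it in Psmd1. A further match of Psmd1, and that of the cap gene Psmd3, fell within the 50 bases after the start and are not printed. The windows of Psmd2 and Psmc2 held neither motif. These matches describe letters and were not tested as sites.

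Between genes, levels can be compared only per length, and for this the deposited FPKM were used. The median FPKM over 12 livers ranged over the 14 tested core genes between 17.5 (Psma4) and 170 (Psmb4), with a median of 71.8. The low value of Psma4 rests on its deposited gene length of 3909 bases. Psma2, with a length of 874 bases and a median FPKM of 74.3, had a like summed count (13583, against 13707 for Psma4). Whether these lengths match the transcripts in liver was not tested. Over the 20 cap genes it ranged between 1.06 (Psmd10) and 80.9 (Psmc3), with a median of 43.6. The catalytic subunits had a median FPKM of 66.7 (Psmb5), 81.4 (Psmb6) and 35.7 (Psmb7). The tested activators, inhibitor and chaperones all lay within the range of the cap genes, between 9.09 (Psmg2) and 38.9 (the inhibitor Psmf1). Among them, the chaperone Psmg1 had a median FPKM of 35.4 and the nuclear activator Psme3 one of 9.46.

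Core and cap genes had lower counts in perfused than in unperfused livers, to a like degree. The median log2 fold change was -0.41 over the 14 tested core genes and -0.41 over the 20 cap genes, a level 0.751 and 0.752 times that of unperfused livers, against a median of 0.03 over all tested genes. All 34 fold changes were negative. Perfused livers had 3 h of cold storage, while SCS 4 h livers had 4 h and WI 30 min livers had none. Perfusion and cold storage therefore cannot be fully told apart in this comparison. With edgeR's quasi-likelihood test, 3 members passed a Benjamini-Hochberg adjusted p of 0.05, all of them cap genes, against 1.02% of all tested genes called. At an unadjusted p under 0.05, 14 of 14 core and 16 of 20 cap genes were lower in perfused livers, against 8.85% of all tested genes. Every perfused liver lay below every unperfused liver for 5 of the 34 genes, against 1.21% of all tested genes. These were the cap genes Psmd1, Psmd2, Psmd3, Psmd7 and Psmd13, and no core gene was among them. The summed counts of all 46 members made up 0.254%, 0.28% and 0.295% of counts in HOPE livers 1, 2 and 3 and 0.226%, 0.229% and 0.27% in HMP livers 1, 2 and 3. They made up 0.413%, 0.395% and 0.301% in SCS livers and 0.376%, 0.321% and 0.314% in WI livers. On this scale no perfused liver reached an unperfused liver. The total includes mitochondrial counts, at 6.56%, 9.2% and 10.2% in HOPE livers and 18.7%, 4.79% and 5.27% in HMP livers. In unperfused livers these were 5.07% to 6.02%, and their part in the separation was not tested. On the core level given below, HMP liver 3 (0.02) lay above WI livers 2 and 3 (-0.0042 and -0.05).

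**Figure D1:**
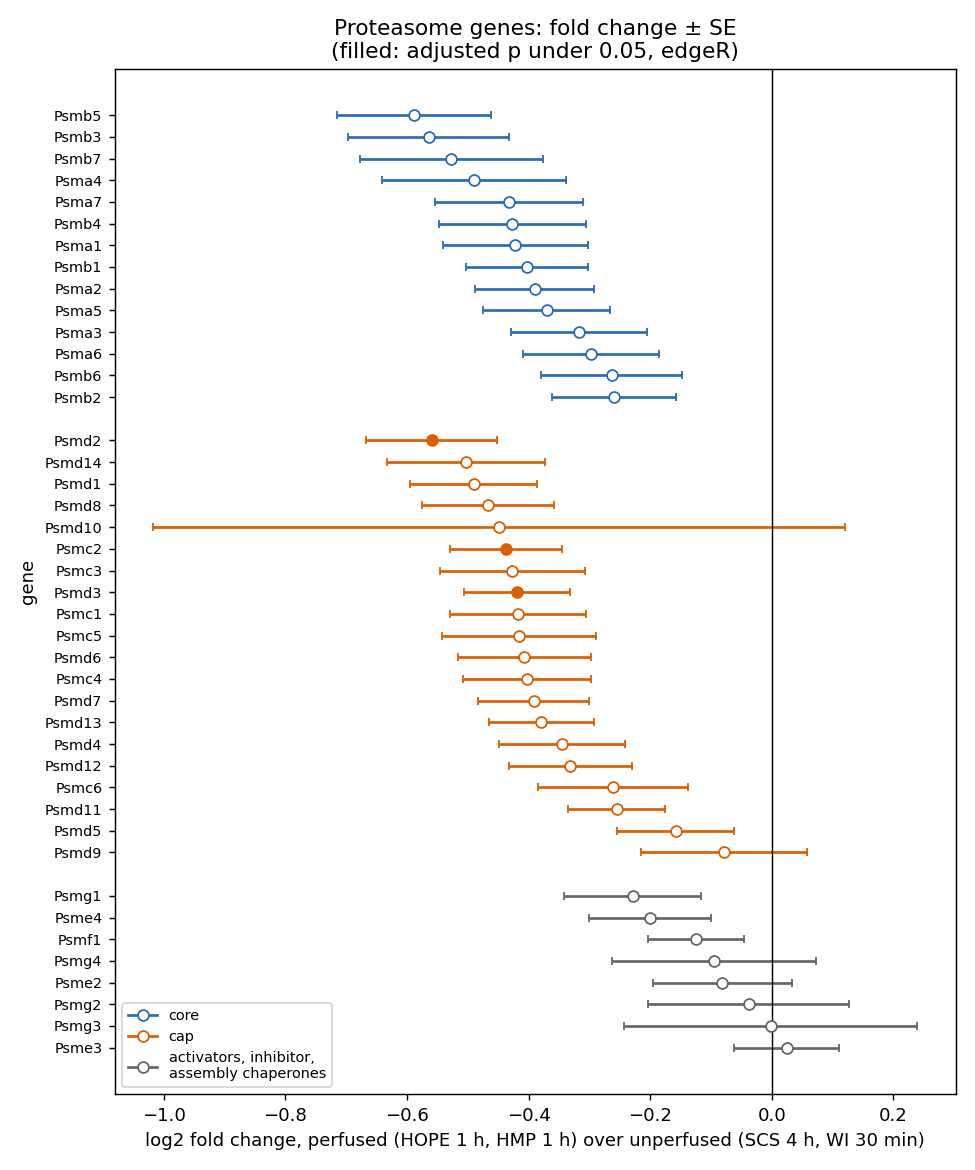
Log2 fold change of perfused over unperfused livers (horizontal axis) for each tested core, cap and other proteasome gene, with bars of 1 SE and filled points for an adjusted p under 0.05 (edgeR, 6 perfused and 6 unperfused livers). All 34 core and cap genes lie left of 0, Psmd2, Psmd3 and Psmc2 are filled, and the 8 activators, inhibitor and chaperones centre at -0.09.

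The called genes were Psmd2, Psmd3 and Psmc2. Psmd2 (chr11:83934087-83944763 on Rnor_6.0) encodes the cap scaffold that docks ubiquitin shuttle proteins. It had 133, 159 and 158 CPM in HOPE livers and 117, 124 and 150 CPM in HMP livers, against 245, 214 and 190 CPM in SCS livers and 229, 185 and 176 CPM in WI livers. Every perfused liver was below the lowest unperfused liver. Psmd2 fell by 0.56 on the log2 scale (SE 0.108, edgeR adjusted p = 0.0413).

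Psmd3 (chr10:86599220-86611188) encodes a subunit of the lid, the part of the cap that holds the deubiquitinase. It had 94.7, 95.1 and 96.9 CPM in HOPE livers and 85.2, 81.6 and 96.1 CPM in HMP livers, against 149, 134 and 111 CPM in SCS livers and 122, 111 and 110 CPM in WI livers. The HOPE livers were close to each other and all perfused livers were below all unperfused livers. Psmd3 fell by 0.42 (SE 0.0872, edgeR adjusted p = 0.0475).

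Psmc2 (chr4:9867101-9881484) encodes an ATPase of the ring that unfolds the substrate. It had 55.2, 69.3 and 62.5 CPM in HOPE livers and 52.1, 55.7 and 64.4 CPM in HMP livers, against 90.2, 93.7 and 77.2 CPM in SCS livers and 81.7, 68.9 and 75.5 CPM in WI livers. HOPE liver 2 and WI liver 2 were almost level, and the other perfused livers were below all unperfused livers. Psmc2 fell by 0.44 (SE 0.0926, edgeR adjusted p = 0.0498).

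These calls rested near the threshold. No member was called without WI liver 1 or 2, SCS liver 1 or 2, HMP liver 1 or 2, or HOPE liver 1, 2 or 3 (0 in each case), and only Psmd3 was called without SCS liver 3. Without WI liver 3, the 3 members called were Psmd2, Psmd8 and Psmd13, and without HMP liver 3, 10 members were called. The shares of all tested genes called in these refits are not given here, so these counts have no background beside them. Without the pair of HMP liver 1 and HOPE liver 3, 0 members passed the adjusted p and 26 had an unadjusted p under 0.05, and the medians were -0.39 for core and -0.38 for cap genes. With DESeq2, 26 members were called, 10 core and 16 cap, all lower in perfused livers, against 5.53% of all tested genes.

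**Figure D2:**
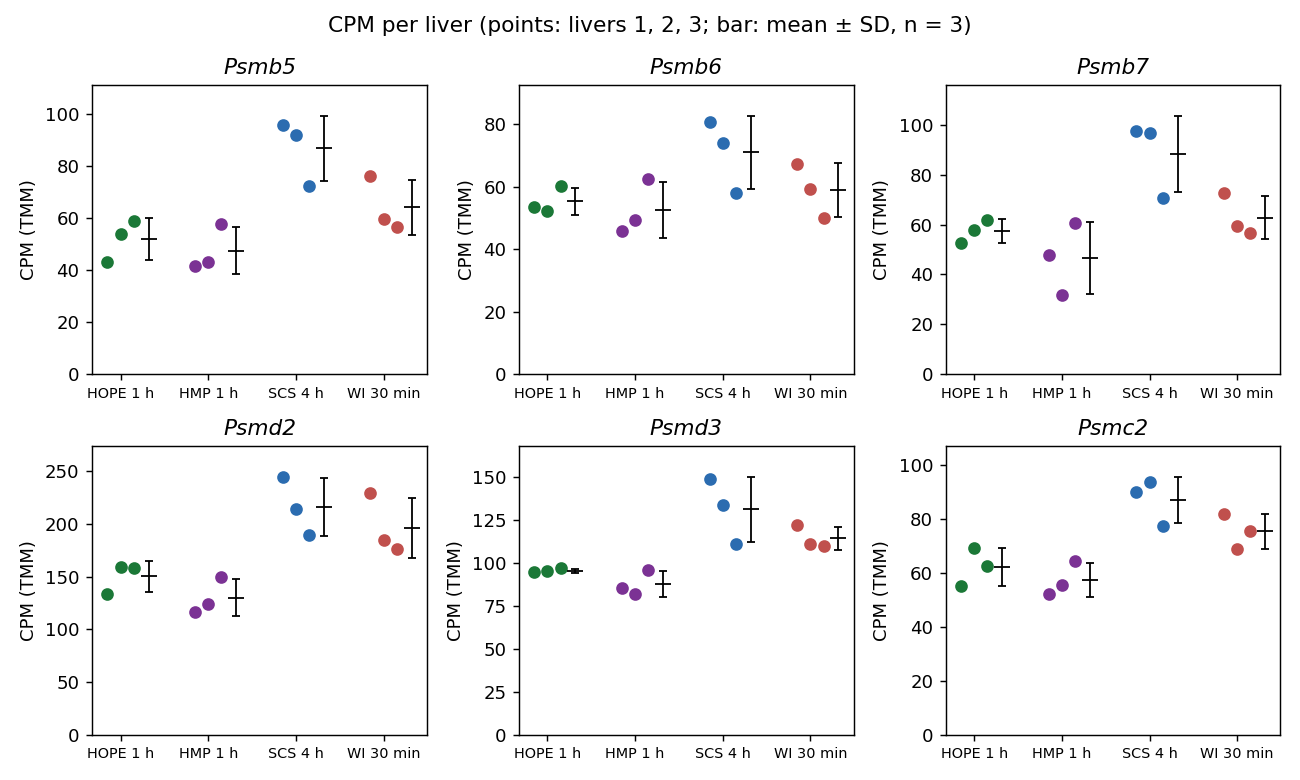
CPM per liver (vertical axis, from 0) of the catalytic subunits Psmb5, Psmb6 and Psmb7 and of the called cap genes Psmd2, Psmd3 and Psmc2, with points for livers 1 to 3 and mean ± SD beside them. Psmd2 and Psmd3 have all HOPE 1 h and HMP 1 h points below all SCS 4 h and WI 30 min points, and Psmb6 overlaps between the groups.

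Among the core genes, all 7 alpha and all 7 beta genes had negative fold changes for perfused over unperfused livers, with medians of -0.39 and -0.43. Psmb5 (chr15:33259043-33263659), the subunit with chymotrypsin-like activity and the target of proteasome inhibitor drugs, had 43.2, 53.8 and 58.8 CPM in HOPE livers and 41.4, 43.2 and 57.8 CPM in HMP livers. It had 95.8, 92.1 and 72.5 CPM in SCS livers and 76.4, 59.7 and 56.6 CPM in WI livers, so that only WI liver 3 reached into the perfused range. Its log2 fold change of -0.59 (SE 0.127) was the largest in size among the core genes and did not pass the test (edgeR adjusted p = 0.0533).

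Psmb7 (chr3:22871105-22952063), the subunit with trypsin-like activity, had 52.4, 57.8 and 61.9 CPM in HOPE livers and 47.6, 31.5 and 60.5 CPM in HMP livers, against 97.7, 96.5 and 70.6 CPM in SCS livers and 72.5, 59.5 and 56.4 CPM in WI livers. The SCS livers were above all others except WI liver 1, which lay above SCS liver 3. The log2 fold change was -0.53 (SE 0.15, edgeR adjusted p = 0.115). Of its gene model, 21.6% lies under Nek6 on the opposite strand.

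Psmb6 (chr10:57131386-57133637), the subunit with caspase-like activity, differed less. It had 53.5, 52.2 and 60.1 CPM in HOPE livers and 45.7, 49.4 and 62.6 CPM in HMP livers, against 80.8, 74.1 and 58.1 CPM in SCS livers and 67.3, 59.4 and 49.9 CPM in WI livers. The groups overlapped, and the log2 fold change was -0.26 (SE 0.116, edgeR adjusted p = 0.266). Whether the catalytic subunits differed from each other in their fold change was not tested.

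In the cap, all 6 ATPases (Psmc) and all 14 Psmd genes had negative fold changes, with medians of -0.42 and -0.40. Psmd1 (chr9:93080615-93155027), the scaffold that holds the cap's ubiquitin receptor, had 110, 115 and 107 CPM in HOPE livers and 83.3, 93.0 and 126 CPM in HMP livers, against 162, 152 and 141 CPM in SCS livers and 158, 135 and 142 CPM in WI livers. No perfused liver reached an unperfused one, and the log2 fold change of -0.49 (SE 0.105) had an edgeR adjusted p of 0.0516. The gene Htr2b, read from the opposite strand within Psmd1, had 7 counts over all livers. The cap genes with the smallest fold changes were Psmd9 (-0.08) and Psmd5 (-0.16), which with Psmd10 encode chaperones that assemble the base of the cap and are absent from the finished particle. Psmd10 had at most 14 counts in a liver and the largest spread between livers within groups, with an SD of log2 CPM of 0.884, so its value of -0.45 (SE 0.569) has little weight. The smallest spread was that of Psmd11 (SD 0.104), a lid subunit that braces core and cap, with 104, 103 and 93.0 CPM in HOPE livers and 98.6, 96.5 and 111 CPM in HMP livers. It had 132, 124 and 110 CPM in SCS livers and 127, 115 and 113 CPM in WI livers, and SCS liver 3 overlapped with HMP liver 3. The median SD within groups was 0.212 for core genes and 0.181 for cap genes, against 0.292 over all tested genes.

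The genes outside core and cap had a median nearer 0. The median log2 fold change of perfused over unperfused livers was -0.09 over 8 activators, inhibitor and chaperones, and 0 of them had an unadjusted p under 0.05 or were called by DESeq2. The lowest was Psmg1, a chaperone that starts the alpha ring, with 38.6, 29.3 and 28.4 CPM in HOPE livers and 30.6, 36.2 and 30.7 CPM in HMP livers, against 35.2, 36.1 and 30.8 CPM in SCS livers and 50.5, 39.2 and 36.4 CPM in WI livers. The WI livers were above all others except HOPE liver 1, which lay between them, and the log2 fold change was -0.23 (SE 0.113, edgeR adjusted p = 0.316). Psme3, an activator of the nuclear core, had 28.7, 25.5 and 25.5 CPM in HOPE livers, 24.7, 21.4 and 21.7 CPM in HMP livers, 23.8, 20.5 and 21.1 CPM in SCS livers and 25.4, 24.9 and 29.5 CPM in WI livers. All HOPE livers lay above all SCS livers for Psme3 (log2 fold change 0.29, SE 0.122, edgeR adjusted p = 0.422), opposite in sign to the core and cap medians of that comparison. Its gene model lies within AC123346.1 on the same strand (1368 counts), so reads may be split between them.

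Core and cap were then set side by side as levels per liver, the mean over genes of log2 CPM centred on each gene's mean over 12 livers. The core level was -0.31, -0.08 and -0.04 in HOPE livers and -0.45, -0.39 and 0.02 in HMP livers, against 0.46, 0.35 and 0.18 in SCS livers and 0.31, -0.0042 and -0.05 in WI livers. The cap level was -0.29, 0.02 and -0.07 in HOPE livers and -0.43, -0.33 and -0.05 in HMP livers, against 0.41, 0.31 and 0.05 in SCS livers and 0.26, 0.04 and 0.09 in WI livers. The SCS livers had the highest mean and the HMP livers the lowest on both scales, with HMP liver 3 and HOPE livers 2 and 3 near WI livers 2 and 3. The difference of core minus cap averaged -0.02 in HOPE, -0.0057 in HMP, 0.07 in SCS and -0.04 in WI livers, with an SD within groups of 0.0714. By gene, the highest group mean was in SCS for 14 of 14 core and 17 of 20 cap genes, and the lowest was in HMP for 13 core and 18 cap genes. Single livers carried many of these extremes, with SCS liver 1 the highest for 25 of the 34 genes and HMP liver 1 the lowest for 24. The shares of all tested genes with these extremes are not given here, so the counts are not set against a background.

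**Figure D3:**
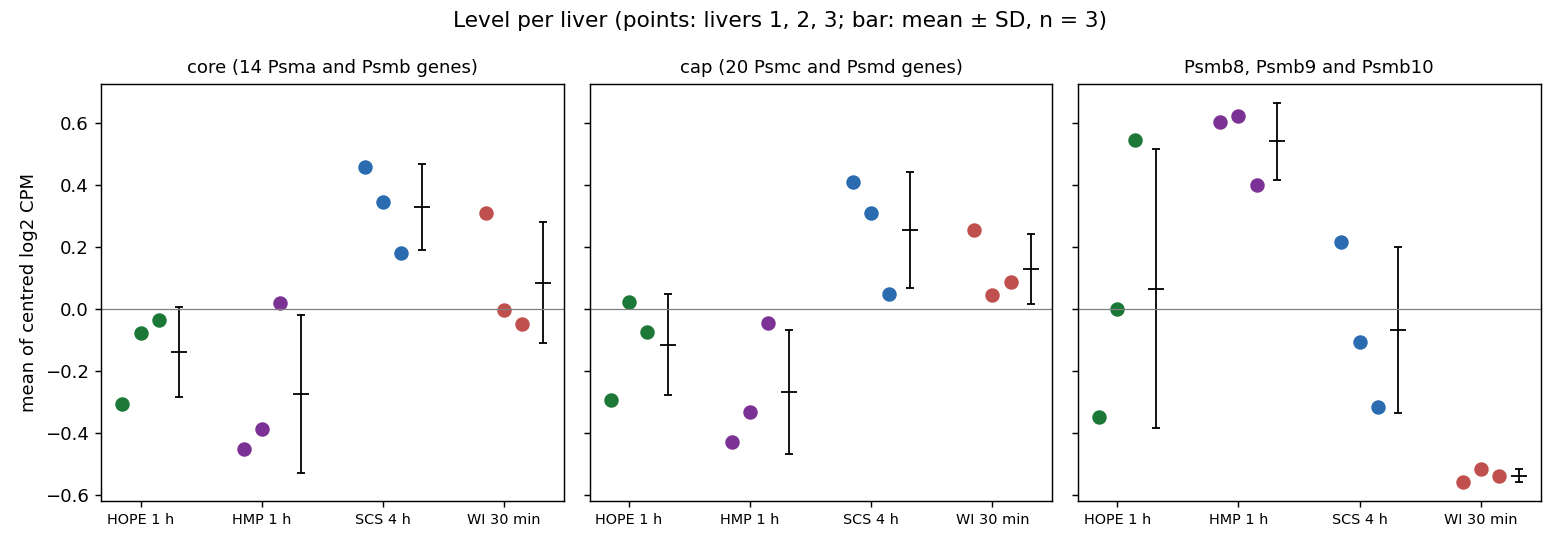
Mean centred log2 CPM per liver (vertical axis) of the 14 tested core genes, the 20 cap genes and the immunoproteasome subunits, with points for livers 1 to 3 of each group and mean ± SD beside them (n = 3). Core and cap are highest in SCS 4 h (means 0.33 and 0.26) and lowest in HMP 1 h (-0.27 and -0.27), and the immunoproteasome subunits are lowest in WI 30 min (-0.54).

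The pairwise comparisons describe the difference group by group. They share livers, so they are not independent of each other. In none of them did a member pass the adjusted p with edgeR, and 0% of all tested genes did either, so the counts below are those at an unadjusted p under 0.05 and those without overlap. The largest medians were those of HMP 1 h against SCS 4 h, at -0.59 for core and -0.58 for cap genes, against 0.04 for all tested genes. All 34 were negative, 30 had an unadjusted p under 0.05, against 8.56% of all tested genes, and 26 had every HMP liver below every SCS liver, against 10.6%. DESeq2 called 20 members, all lower in HMP livers, against 3.16% of all tested genes. Psmb7 had the largest fold change in size of the tested members, -0.92 (SE 0.213, edgeR adjusted p = 0.0948), and Psmb5 followed with -0.87 (SE 0.18, edgeR adjusted p = 0.088).

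For HOPE 1 h against SCS 4 h, the median was -0.49 for core and -0.40 for cap genes, against 0.04 for all tested genes, and 33 of 34 were negative. An unadjusted p under 0.05 with lower counts was reached by 11 core and 12 cap genes, against 6.84% of all tested genes, and 11 core and 12 cap genes had every HOPE liver below every SCS liver, against 10.3%. All 7 beta genes were among those with an unadjusted p under 0.05. DESeq2 called 5 members, Psmb4, Psmb5, Psmc2, Psmd2 and Psmd3, against 1.49% of all tested genes. Psmb5 had a log2 fold change of -0.74 (SE 0.18, edgeR adjusted p = 0.287). Without SCS liver 1 the number of members under an unadjusted p of 0.05 was 16, against 25 with all livers.

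Against WI 30 min, the HMP livers differed more than the HOPE livers in size of the medians, and the difference between these comparisons is that of HOPE and HMP given below. The red cell markers (3 of 3 in the table) summed to 993 to 1550 CPM in HOPE livers, 214 to 2100 CPM in HMP livers and 470 to 1485 CPM in SCS livers, against 2848 to 3840 CPM in WI livers. Every WI liver was above every other liver, so that the red cell markers moved with each comparison against WI 30 min. Stellate cell markers also did not overlap between HOPE livers (683 to 1051 CPM) and WI livers (430 to 664 CPM). Bile duct markers did not overlap between HMP livers (16.65 to 21.88 CPM) and WI livers (14.87 to 16.58 CPM). The part of these markers in the proteasome values was not tested. For HMP 1 h against WI 30 min the median was -0.35 for core and -0.38 for cap genes, against 0.03 for all tested genes, all 34 were negative, and 21 had an unadjusted p under 0.05, against 6.6% of all tested genes. For 2 core and 12 cap genes, every HMP liver lay below every WI liver, against 8.45% of all tested genes, and DESeq2 called 4 members, Psmc4, Psmd1, Psmd2 and Psmd14, against 2.85%. Counting all 43 members, 22 had an unadjusted p under 0.05, 8 without WI liver 1, 10 without HMP liver 1, 12 without HMP liver 2 and 9 without HMP liver 1 and HOPE liver 3 together. For HOPE 1 h against WI 30 min the median was -0.23 for core and -0.23 for cap genes, against 0.02 for all tested genes, and 33 of 34 were negative. The core median was -0.10 without WI liver 1 and -0.14 without HOPE liver 1. Only 4 cap genes and 0 core genes had an unadjusted p under 0.05 with lower counts, against 4.16% of all tested genes, and 10 cap genes but no core gene had every HOPE liver below every WI liver, against 7.42%. Of the members, 5 had an unadjusted p under 0.05 in this comparison and 0 did without WI liver 1, 2 without HOPE liver 1 or 3, 3 without HOPE liver 2 or SCS liver 2, and 10 without HMP liver 3. DESeq2 called 0 members.

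The effect of oxygenation is addressed by HOPE 1 h against HMP 1 h. The median was 0.12 for core and 0.13 for cap genes, against -0.0064 for all tested genes, and 31 of 34 were positive. Single livers moved the core median, which was 0.00139 without HMP liver 1, 0.0680 without HMP liver 2, 0.26 without HMP liver 3, 0.20 without HOPE liver 1 and 0.0515 without HOPE liver 3. The cap median was 0.0557 without HMP liver 1 and 0.22 without HMP liver 3. An unadjusted p under 0.05 with higher counts was reached by 3 of 34 genes, against 3.96% of all tested genes, and 1 gene had every HOPE liver above every HMP liver, against 6.22%. With HMP liver 1 and HOPE liver 3 left out, the core median turned to -0.08 and the cap median was 0.05. Of all 43 members, 4 had an unadjusted p under 0.05, 1 without HMP liver 1 or HMP liver 2 and 8 without HMP liver 3, and DESeq2 called 0. The 3 genes were Psmc4, Psmd14 and Psmd12, all of the cap.

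Psmc4 (chr1:84978206-84986581), an ATPase of the cap, had 57.3, 70.2 and 62.9 CPM in HOPE livers, against 41.4, 41.9 and 53.9 CPM in HMP livers. It was the gene without overlap, with a log2 fold change of 0.47 (SE 0.149, edgeR adjusted p = 0.558). Psmd14 (chr3:47578384-47673338), the deubiquitinase that cuts the ubiquitin chain from the substrate, had 26.7, 32.8 and 34.3 CPM in HOPE livers, against 18.6, 18.4 and 27.9 CPM in HMP livers. HMP liver 3 exceeded HOPE liver 1, and the log2 fold change was 0.53 (SE 0.184, edgeR adjusted p = 0.57). Psmd12 (chr10:95706685-95725812), a lid subunit, had 55.8, 71.4 and 57.9 CPM in HOPE livers, against 39.9, 46.0 and 57.4 CPM in HMP livers. Here too HMP liver 3 overlapped with the HOPE livers, and the log2 fold change was 0.37 (SE 0.143, edgeR adjusted p = 0.621).

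Static storage after warm ischemia was compared with warm ischemia alone. For SCS 4 h against WI 30 min the median was 0.27 for core and 0.14 for cap genes, against 0.01 for all tested genes, and 32 of 34 were positive. The core median was 0.17 without WI liver 3, and the cap median was 0.0599 without SCS liver 1, 0.22 without SCS liver 3 and 0.22 without WI liver 1. Besides the red cell markers, the Kupffer cell and bile duct markers did not overlap in this comparison. Kupffer cell markers summed to 401 to 471 CPM in SCS livers against 289 to 362 CPM in WI livers. For bile duct markers the sums were 16.8 to 21.0 CPM in SCS livers against 14.9 to 16.6 CPM in WI livers. The part of these markers was not tested. An unadjusted p under 0.05 with higher counts was reached by 2 genes, the catalytic subunits Psmb5 and Psmb7, against 2.77% of all tested genes, and 2 genes had every SCS liver above every WI liver, against 7.13%. Psmb5 had a log2 fold change of 0.43 (SE 0.179) and Psmb7 of 0.49 (SE 0.212), each with an edgeR adjusted p of 0.962. Of all 43 members, 4 had an unadjusted p under 0.05, and this count moved between 0 and 11 when any 1 of the SCS or WI livers was left out. DESeq2 called 0 members. In the joint test of any difference among the 4 groups, 0 members passed the adjusted p with edgeR, as did 0% of all tested genes, and 26 of 43 members had an unadjusted p under 0.05, against 12.3% of all tested genes. DESeq2 called 15 members in its joint test, against 4.15% of all tested genes.

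**Figure D4:**
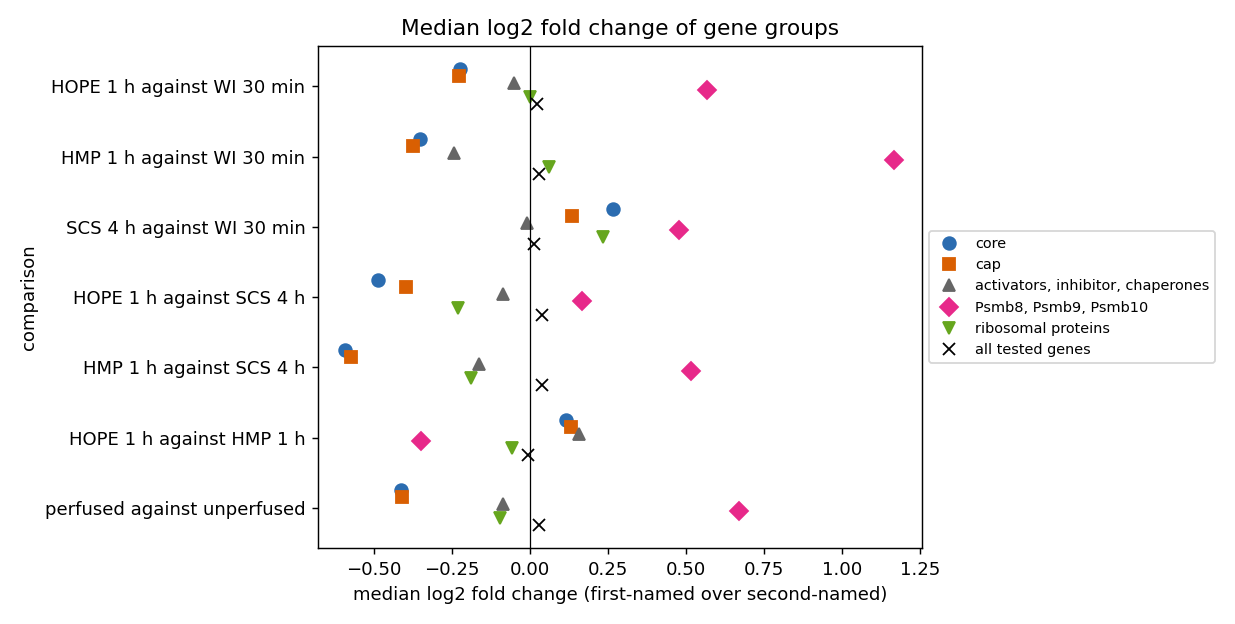
Median log2 fold change (horizontal axis, first-named over second-named group) of core, cap, other proteasome genes, immunoproteasome subunits, ribosomal proteins and all tested genes in each comparison. Core and cap lie at -0.59 and -0.58 for HMP 1 h against SCS 4 h and on the positive side for HOPE 1 h against HMP 1 h and SCS 4 h against WI 30 min, while all tested genes stay between -0.0064 and 0.04.

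The immunoproteasome subunits Psmb8, Psmb9 and Psmb10, which replace the catalytic subunits after interferon signalling, had the opposite sign for perfused over unperfused livers. Their log2 fold changes were 0.70, 0.67 and 0.50 (edgeR adjusted p = 0.0729, 0.0955 and 0.128), and 0 of 3 passed the test, against 1.02% of all tested genes. An unadjusted p under 0.05 with higher counts was reached by 3 of 3, against 8.82% of all tested genes, and DESeq2 called 3 of 3, against 5.53%. The groups differed in this. In the same gene order, the log2 fold changes were 0.23, 0.09 and 0.17 for HOPE 1 h against SCS 4 h. They were 0.50, 0.77 and 0.52 for HMP 1 h against SCS 4 h, and 0.67, 0.48 and 0.32 for SCS 4 h against WI 30 min. The level of these subunits was -0.35, 0.0003 and 0.54 in HOPE livers 1, 2 and 3. Cytosolic ribosomal protein genes, another large complex made in fixed proportion, had a median of -0.10 for perfused over unperfused livers, with 66 of 87 negative. In HMP 1 h against WI 30 min the ribosomal median was 0.06, and in SCS 4 h against WI 30 min it was 0.23. The ribosomal level per liver, computed as for core and cap, averaged -0.07 in HOPE, -0.03 in HMP, 0.17 in SCS and -0.07 in WI livers. Its highest group mean was thus in SCS livers, as for core and cap.

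Other genes of the ubiquitin pathway were taken from a list of 33 symbols, of which 32 were tested on 33 rows. For perfused over unperfused livers their median was -0.14, with 26 rows negative, and 0 were called by edgeR or DESeq2, against 1.02% and 5.53% of all tested genes. An unadjusted p under 0.05 was reached by 8 rows with lower counts, against 8.85% of all tested genes, and by 1 row with higher counts, against 8.82%. All 5 genes of the segregase Vcp and its cofactors were negative, with a median of -0.22. Ufd1, a cofactor with which Vcp extracts ubiquitylated proteins, had 29.4, 27.4 and 27.7 CPM in HOPE livers and 22.4, 24.1 and 29.0 CPM in HMP livers, against 35.2, 36.2 and 33.2 CPM in SCS livers and 31.6, 27.3 and 24.5 CPM in WI livers. The SCS livers were above all others. For HMP 1 h against SCS 4 h the log2 fold change of Ufd1 was -0.47 (SE 0.13, edgeR adjusted p = 0.143).

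Uchl5, a deubiquitinase that binds the cap, had 11.6, 12.6 and 11.4 CPM in HOPE livers, against 8.68, 7.81 and 10.2 CPM in HMP livers. The HOPE livers were above the HMP livers, with a log2 fold change of 0.41 (SE 0.137, edgeR adjusted p = 0.558), and near the SCS livers at 11.5, 11.0 and 11.0 CPM and the WI livers at 10.9, 11.9 and 12.5 CPM. Nsfl1c, another cofactor of Vcp, had 50.5, 50.2 and 47.2 CPM in HOPE livers and 47.2, 51.8 and 54.4 CPM in HMP livers, against 87.0, 70.3 and 49.6 CPM in SCS livers and 57.8, 59.2 and 54.7 CPM in WI livers. SCS livers 1 and 2 were the highest and SCS liver 3 lay among the perfused livers, and the log2 fold change of perfused over unperfused livers was -0.32 (SE 0.117, edgeR adjusted p = 0.19). The 6 genes that control proteasome gene transcription, among them Nfe2l1 and the NF-Y subunits, had a median of -0.09. Of these, 1 of 6, the NF-Y subunit Nfyb, had an unadjusted p under 0.05, with lower counts, against 8.85% of all tested genes.

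Markers of other liver cells stood higher in some perfused livers. Summed marker levels were 333 to 1079 CPM for Kupffer cells (6 of 6 genes in the table), 278 to 686 CPM for sinusoidal endothelium (5 of 6) and 533 to 1613 CPM for stellate cells (6 of 6) in perfused livers, against 289 to 471, 266 to 395 and 430 to 826 CPM in unperfused livers. Col3a1 had the most counts of the stellate markers in every liver. The stellate marker Dcn was lower against SCS 4 h, with log2 fold changes of -0.85 in HMP 1 h and -0.62 in HOPE 1 h (edgeR adjusted p = 0.345 and 0.602). All other stellate markers had positive fold changes in both comparisons. Bile duct markers summed to 13.8 to 29.3 CPM in perfused and 14.9 to 21.0 CPM in unperfused livers, and lymphocyte markers to 2.39 to 11.7 and 1.37 to 3.76 CPM. Red cell markers, which were highest in WI livers, are given above by group. In each of these lists, 0 genes were at 0 in all livers. The part of these cells in the proteasome values was not tested beyond the fit without HMP liver 1 and HOPE liver 3 given above.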

How the data were processed

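Liver RNA from 3 rats in each of the HOPE 1 h, HMP 1 h, SCS 4 h and WI 30 min groups was sequenced from mRNA libraries. Per the study's methods, paired-end reads were aligned with Hisat2 and transcripts assembled with StringTie by the authors. The build named in the submitters' processing notes is Rnor_6.0. The authors deposited raw counts per gene with a counting tool not given in the sources used here. For levels between genes, FPKM were taken as the authors deposited them, scaled by gene length and a library total. The authors also deposited log2 fold changes, p-values, adjusted p-values and group means of their own comparisons between groups, which were not used. All per-liver columns matched a liver by name (0 of 24 unmatched).

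Counts of 13687 genes kept by filterByExpr, of 33744, were fitted with edgeR 4.0.16 (R 4.3.3) by the quasi-likelihood F test, with TMM factors and all 12 livers in a single model of group means, with Benjamini-Hochberg adjustment over these genes and a threshold of 0.05. Log2 CPM used a prior count of 2. The model was tested on simulated data for perfused against unperfused livers with 13687 genes and recovered 28.4% of genes changed by 1.5-fold, 67.2% by 2-fold and 95.5% by 4-fold, beside 7 false calls. Alternatives were DESeq2 1.42.0, RLE, library totals only, no filter, only the groups compared, a replicate block, an unadjusted p, HMP liver 1 and HOPE liver 3 left out, and each liver left out. Other prior counts and medians over members were tried for levels, and other memberships of the cap for its median.

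Genes described by liver are the catalytic subunits, the up to 3 members with the lowest p in each comparison and in the joint test, the members with the largest and smallest spread, and 3 pathway genes with the lowest joint p. The members, lists and rules were chosen with earlier results of these data known.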

Additional observations from a re-analysis of the deposited data

How the results depend on the processing

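For perfused against unperfused livers, the count of members called (3) was 26 with DESeq2, 14 with library totals only, 5 without the filter on low counts, 30 at an unadjusted p, 0 with HMP liver 1 and HOPE liver 3 left out, and 0 to 10 with each liver left out in turn. Shares of all tested genes are given above for DESeq2 and the unadjusted p, and not for the other refits. In the other comparisons the count of 0 became, with DESeq2, 5 for HOPE 1 h against SCS 4 h, 4 for HMP 1 h against WI 30 min, 20 for HMP 1 h against SCS 4 h and 15 in the joint test. At an unadjusted p it became 5 for HOPE 1 h against WI 30 min, 25 for HOPE 1 h against SCS 4 h, 4 for HOPE 1 h against HMP 1 h, 22 for HMP 1 h against WI 30 min, 31 for HMP 1 h against SCS 4 h, 4 for SCS 4 h against WI 30 min and 26 in the joint test. Leaving out HMP liver 1 and HOPE liver 3 turned the core median of HOPE 1 h against HMP 1 h to -0.0777, and Psmb5 to -0.0806 and Psmb6 to -0.10 in that comparison. The cause was not tested, and fewer livers were in these fits. Every core and cap median of the other comparisons kept its direction under all alternatives run. Named members kept their direction and side of the threshold in 209 of 264 refits of perfused against unperfused livers, with 17 newly called and 38 no longer called. The labels do not say whether replicate numbers pair the livers. Between groups, deviations of livers with the same number correlated at -0.189 to 0.143 (median 0.0334, 1 of 18 pairs over 0.1). Those of livers with different numbers correlated at -0.225 to 0.33 (median -0.0075, 3 of 36 pairs over 0.1). With 3 livers per group, these values cannot exclude a shared batch. With the replicate number as a block, 0 members were called for perfused against unperfused livers, and the counts of the other comparisons stayed at 0. Counts were low for Psmd10, and Psma8, Psmb11 and Psme1 did not pass the filter on low counts.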

Other observations

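The library total that the deposited FPKM imply was 17492088, 17260103 and 19366714 in HOPE livers and 17575579, 15968402 and 15010493 in HMP livers. It was 17902095, 16636487 and 15435669 in SCS livers and 17656680, 15805964 and 16572369 in WI livers. These totals differ from the sums of the deposited counts, for example 15435669 against 16543637 in SCS liver 3 and 15010493 against 16563806 in HMP liver 3. FPKM ratios between livers therefore differ from ratios of count shares.

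Near-identical copies limit some genes of the pathway. Pomp, a chaperone that completes the core, had 346 counts over the 12 livers, against 6990 counts for LOC100911238, annotated as like it, so the value of Pomp alone is uncertain. Copies annotated as like Psma3 (LOC100361067, a pseudogene) and Psmb6 (LOC100360846) had 233 and 217 counts, against 22694 for Psma3 and 12037 for Psmb6.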
